A study of Mus musculus with 6 samples.

Results

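The genes described here are 33 genes of the unfolded protein response and of the machinery that folds, checks and clears proteins in the endoplasmic reticulum (ER). Their list was chosen with earlier results of these data known. The 33 genes were taken by name from this fixed list of sensors, transcription factors, chaperones, disulfide enzymes, degradation genes and stress targets. Each was read from the row of the deposited expression table that carries its symbol, with the row of highest mean used where a symbol had several rows. All 33 were found among the 44519 rows of the table, and all 33 were among the 15037 rows that reached 1 FPKM (fragment counts scaled to transcript length and to library depth) in 3 or more libraries, the rows that were tested. The study sorted GFP-positive cells, labelled as horizontal basal stem cells, from the mouse olfactory neuroepithelium and sequenced their mRNA in bulk. The control group of 3 libraries (replicates 1, 2 and 4) came from mice of genotype Krt17-EGFP, described as NoDox. The TNF group of 3 libraries (replicates 1, 3 and 4) came from mice of genotype Krt17-EGFP; Cyp2g1-rtTA; TRE-TNF after 6 weeks of doxycycline. In these mice the Cyp2g1 promoter, active in the sustentacular cells of the epithelium, drives a doxycycline-dependent activator that switches on TNF, and the Krt17-EGFP reporter carried by both groups marks the sorted cells. Because the groups differ in both transgenes and in doxycycline, the effects of these cannot be told apart. The sources used here do not give the age of the mice. No label ties each library to 1 animal, so p-values measure the spread between these libraries.

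Proteins bound for secretion or for membranes are folded in the ER by chaperones, lectins and disulfide isomerases, and those that fail to fold are sent back to the cytosol for degradation. When unfolded proteins build up, 3 membrane sensors respond: the product of Ern1 splices the mRNA of Xbp1, the kinase made by Eif2ak3 (PERK) slows translation while favouring that of Atf4, and the protein made by Atf6 is cut to release a transcription factor. XBP1 and ATF6 are known activators of chaperone and degradation genes, whereas ATF4 and its target CHOP (gene Ddit3) act on amino acid supply, redox balance and cell death genes, and ATF4 is also reached by kinases that sense other stresses. Secretory cells depend on this system, and epithelial cells under inflammation are known to use it.

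The promoters of 29 of the 33 genes were found in RefSeq (build GRCm38.p6), as windows of 300 bases from 250 before to 50 after the annotated start, and Hyou1, Atf6, Manf and Derl1 had none. They were searched on both strands for the ER stress element ERSE, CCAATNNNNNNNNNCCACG with any 9 bases in the middle, the known element of ATF6 and XBP1. It occurred in 9 of the 29 windows (31%), against 0.119% of all 32851 windows. The site of Hspa5 is shown as the chaperone gene in which the element is best known, and the sites of Calr and Pdia6 because both genes rose in the TNF group. Capitals mark the element, which on the strand shown reads either forwards or as its reverse complement, and the sequences run 5′ to 3′ on the strand of the gene.
Hspa5 ERSE, chr2:34772020-34772048, plus strand: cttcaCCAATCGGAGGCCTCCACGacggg
Calr ERSE, chr8:84847070-84847098, minus strand: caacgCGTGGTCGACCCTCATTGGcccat
Pdia6 ERSE, chr12:17266486-17266514, plus strand: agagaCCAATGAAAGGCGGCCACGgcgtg
The element began 65 bases before the start of Hspa5, 162 before that of Calr and 98 before that of Pdia6. The other 6 genes with the element were Canx, Creld2, Derl3, Dnajc3, Hsp90b1, which held 2 copies, and Syvn1. A related element, ERSE-II (ATTGGNCCACG), was present in Herpud1 and Dnajb11, 6.9% of the windows against 0.0365% of all, and the XBP1 element core TGACGTGG was in none of the 29, against 0.676% of all windows. The core TGATGNAA of the element bound by ATF4 together with C/EBP proteins was present in 4 windows (13.8%, against 3.97% of all). Its sites are shown because 3 of these 4 genes, Chac1, Trib3 and Herpud1, were lower in the TNF group, as 27.2% of all tested rows were. These 3 made up all but Ddit3 of the genes that fell.
Chac1 ATF4 element core, chr2:119351044-119351061, plus strand: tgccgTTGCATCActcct
Trib3 ATF4 element core, chr2:152344034-152344051, minus strand: caggtTTACATCAgccgg
Asns ATF4 element core, chr6:7693220-7693237, minus strand: ccacaTGATGAAActtcc
Herpud1 ATF4 element core, chr8:94386312-94386329, plus strand: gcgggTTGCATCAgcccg
Herpud1 ERSE-II, chr8:94386372-94386392, plus strand: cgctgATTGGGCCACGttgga
Herpud1 alone held both kinds of element, as the 240 bases that begin 250 before its start show, with both in capitals.
Herpud1 promoter, chr8:94386179-94386418, plus strand: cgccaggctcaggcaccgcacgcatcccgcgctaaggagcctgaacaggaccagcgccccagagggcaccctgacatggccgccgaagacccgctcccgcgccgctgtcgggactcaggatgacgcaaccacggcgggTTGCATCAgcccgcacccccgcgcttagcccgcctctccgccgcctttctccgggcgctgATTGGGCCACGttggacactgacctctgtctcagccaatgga
A match describes the letters of the window only and does not show that a factor binds there.

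Before the results, the libraries and the cells in them need describing. Tnf was at 7.64, 28.0 and 7.58 FPKM in the controls and 142, 91.9 and 102 FPKM in the TNF libraries (log2 change 3.11 ± 0.49 SE, limma adjusted p = 0.00346). This value per gene does not separate mRNA of the transgene from that of the mouse's own gene, nor the cells it came from. All 10 rows of the horizontal basal cell marker list were detected in every library, and their summed level was 2771, 3490 and 796 FPKM in control replicates 1, 2 and 4 and 8173, 6162 and 5858 FPKM in TNF replicates 1, 3 and 4, with 4 of 10 higher past the threshold. Markers of other cells were present as well: mature olfactory neuron markers summed to 2632 to 5148 FPKM in the controls and to 938, 47.5 and 41.4 FPKM in TNF replicates 1, 3 and 4 (10 of 10 lower), and immature neuron markers to 4104 to 8516 FPKM and 383 to 520 FPKM (8 of 8 lower). Over all tested rows, 10.9% rose and 27.2% fell. Sustentacular markers fell for 5 of 7 tested, globose basal cell markers for 4 of 8 and macrophage and myeloid markers for 6 of 11. T and NK cell markers fell for 2 of 4 and microvillar and tuft cell markers for 1 of 4, while 2 of 7 Bowman gland markers and 2 of 9 immediate early genes rose. Of 5 fibroblast and 5 endothelial markers none passed by limma (0 and 0 at an unadjusted p below 0.05, a level that 47.7% of all tested rows reached). Sustentacular markers summed to 5918, 6617 and 2707 FPKM in control replicates 1, 2 and 4 and to 8406, 3496 and 3400 FPKM in TNF replicates 1, 3 and 4. Most of each sum was the single gene Cbr2, which did not pass. Cbr2 was at 4553, 5250 and 1945 FPKM in these controls and 7829, 3332 and 3197 FPKM in these TNF libraries. The next highest, Cyp2a5, was at 745, 776 and 224 FPKM and at 376, 73.0 and 105 FPKM. Macrophage and myeloid markers summed to 323, 361 and 1681 FPKM and to 585, 194 and 266 FPKM in the same order. Fibroblast markers summed to 525, 446 and 135 FPKM in control replicates 1, 2 and 4 and to 41.5, 1056 and 1522 FPKM in TNF replicates 1, 3 and 4, and endothelial markers to 31.2 to 42.9 FPKM in the controls and 3.78, 83.01 and 122 FPKM in the TNF libraries. In bulk RNA, fewer cells of a type and less RNA per cell cannot be told apart. Control replicate 4 stood apart from the other controls (correlation of log2 values 0.931 and 0.922, against 0.972 between those), and TNF replicate 1 from the other TNF libraries (0.912 and 0.909, against 0.983). For plasma and B cells, themselves rich in ER, summed markers were 214, 232 and 1021 FPKM in control replicates 1, 2 and 4 and 891, 735 and 594 FPKM in TNF replicates 1, 3 and 4, with 1 of 9 higher and 4 lower. The part of these cells, and of the neurons, in the results that follow was not tested.

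Of the 33 genes, 5 rose (15.2%), where 10.9% of all 15037 tested rows rose, and 4 fell (12.1%), where 27.2% of all tested rows fell, at a limma adjusted p below 0.05. The 5 that rose were Xbp1, Pdia4, Pdia6, Calr and Eif2ak3, and the 4 that fell were Trib3, Ddit3, Chac1 and Herpud1. The remaining 24 did not pass the test. The median log2 change of the 33 genes was 0.26, against -0.22 over all tested rows, and 21 of the 33 had a log2 change above 0, against 38.5% of all tested rows. All 3 TNF libraries were above all 3 controls for 10 genes, a pattern seen in 16.8% of all tested rows, and below them for 7 genes, seen in 36.2%. Chac1 passed the filter on low values through its control libraries, since all 3 of its TNF values were under 1 FPKM, so its inclusion required a difference. Sorted by role, the rises were 1 sensor, 1 transcription factor, 1 lectin and 2 disulfide enzymes, and the falls were 1 transcription factor, 1 degradation gene and 2 targets of ATF4 and CHOP.

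The values were tested as deposited, and the direction of the 5 rises depended on one way of scaling them. Scaling each library to its level of the horizontal basal cell marker list moved the median of all tested rows from -0.22 to -1.54. The factors were 0.81, 0.88 and 0.28 for control replicates 1, 2 and 4 and 1.80, 1.63 and 1.48 for TNF replicates 1, 3 and 4. Control replicate 4 thus stood far below the other controls in this scaling. This scaling turned all 5 rises into values below 0 (from -0.33 for Xbp1 to -0.75 for Eif2ak3), none past the threshold. With it, 11 of the 33 genes were lower and 0 higher, where 57% of all tested rows were lower and 1.4% higher. Relative to the median of all rows under that scaling, the 33 genes with a median of -1.16 were still above it. With median-of-ratios scaling, which moved the median of all rows to 0.00, 8 of the genes rose and 4 fell, against 15.6% of all rows higher and 21.2% lower. Quantile normalization gave 6 and 3, against 17.7% and 19.1%. Under each of these scalings Trib3, Ddit3 and Herpud1 remained lower.

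**Figure D1:**
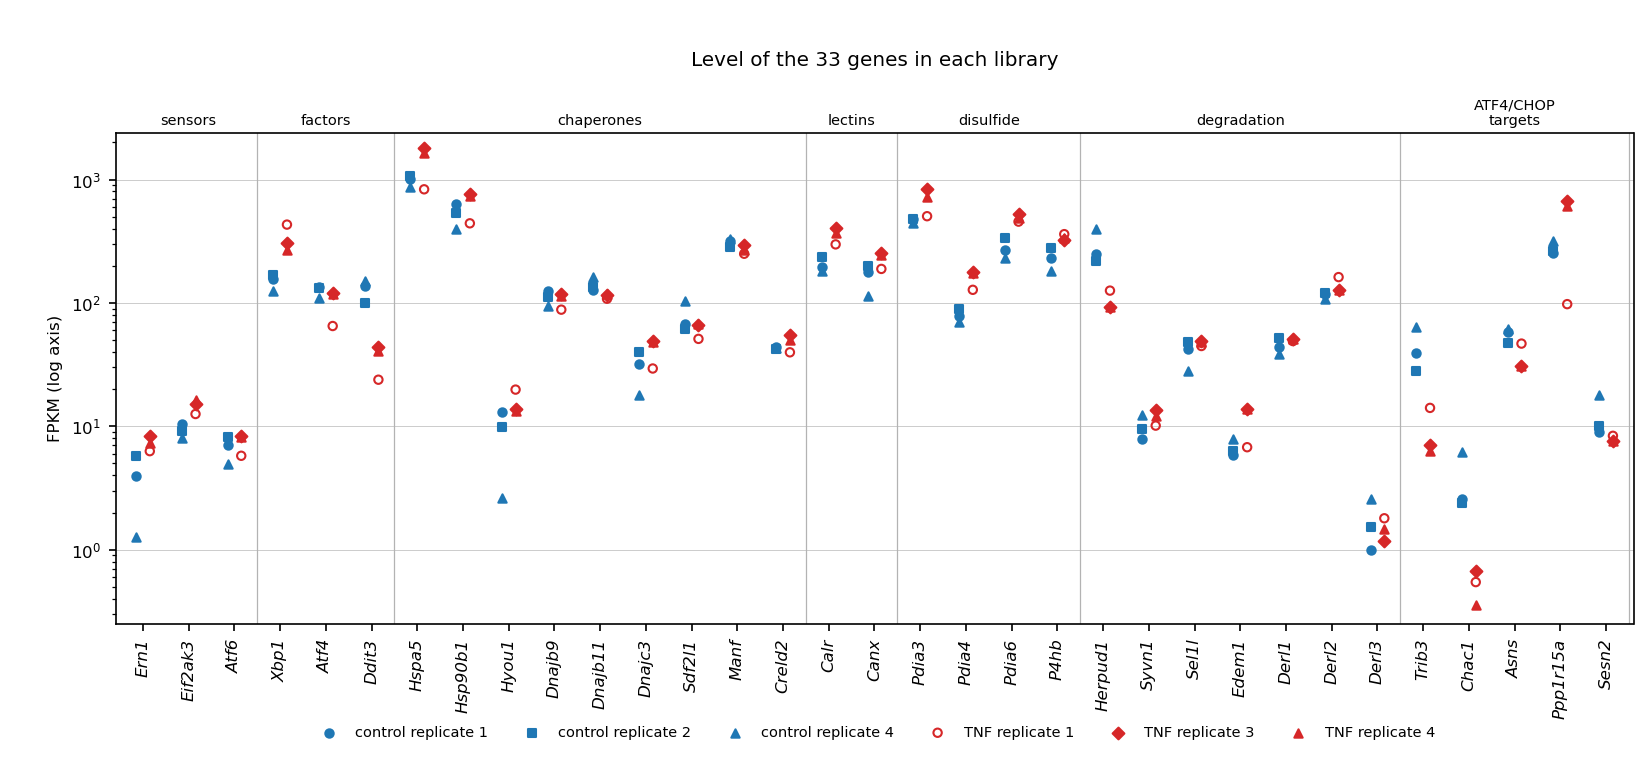
FPKM of the 33 genes in each library on a log axis, grouped by role, with each control library and each TNF library as a point. Hspa5 and Hsp90b1 lie at the top of the range, Chac1 and Derl3 at the bottom, and the TNF points of Xbp1, Pdia4, Pdia6 and Calr lie above all control points.

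**Figure D2:**
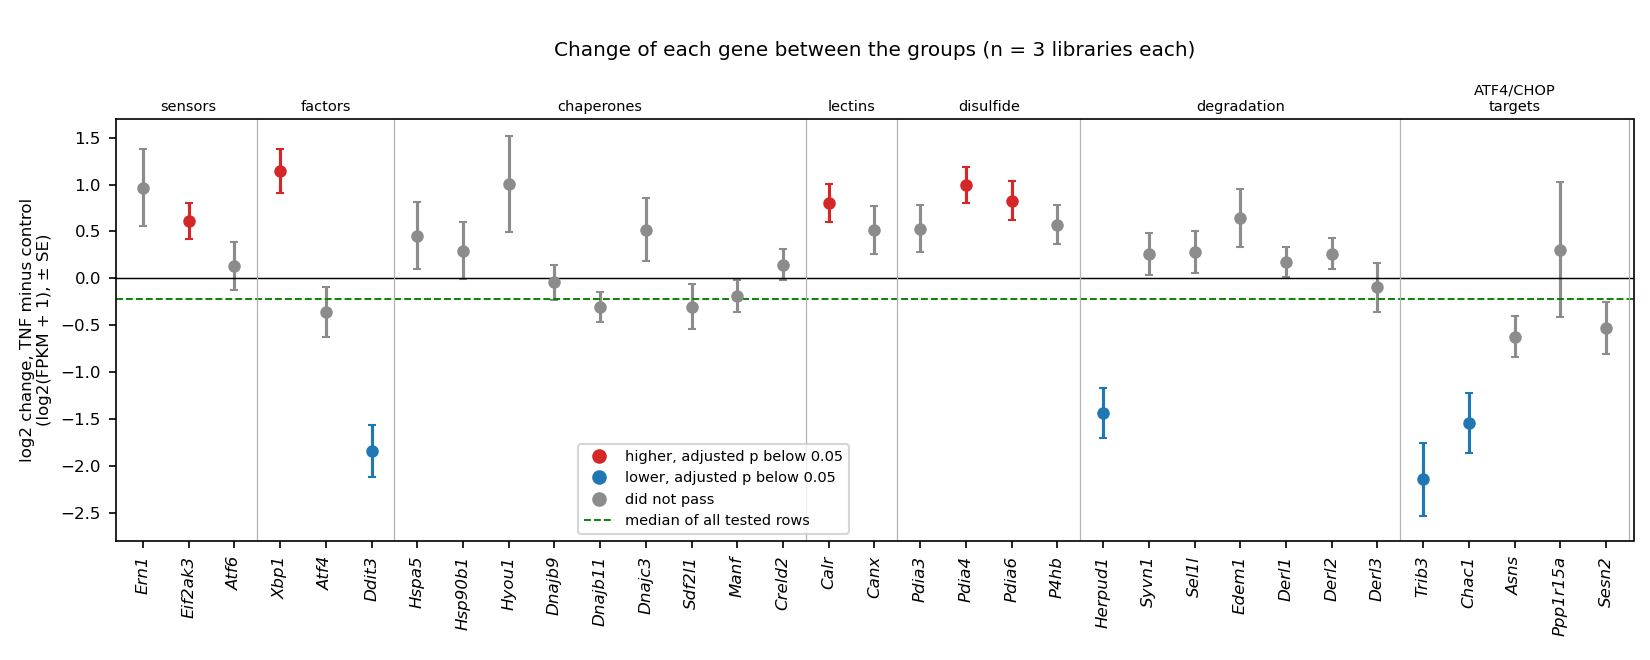
Log2 change of each gene, TNF minus control, on the log2(FPKM + 1) scale of the deposited values, with bars of ± 1 SE (n = 3 libraries per group) and the median of all tested rows as a dashed line. The 5 red genes rose and the 4 blue genes fell at a limma adjusted p below 0.05, and the 5 rises turn to values below 0 when libraries are scaled to the horizontal basal cell markers.

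Among the sensors, Eif2ak3, which encodes the kinase PERK, rose. Its level was 10.5, 9.23 and 8.07 FPKM across control replicates 1, 2 and 4, compared with 12.6, 15.2 and 16.4 FPKM in TNF replicates 1, 3 and 4. Every TNF library was above every control, with group means of 9.27 ± 1.22 and 14.7 ± 1.94 FPKM (SD, n = 3 each), a log2 change of 0.61 ± 0.19 (SE) and a limma adjusted p of 0.0465. This call was close to the threshold: it held without TNF replicate 1 (0.0249) and was lost without any other single library (adjusted p from 0.078 to 0.171) and with no filter on low values (0.0526). Its exons overlap those of Gm43292 on the other strand.

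Ern1, the sensor with the RNase that splices Xbp1 mRNA, was at 3.98, 5.74 and 1.28 FPKM in the controls and 6.29, 8.399 and 7.32 FPKM in the TNF libraries. The groups did not overlap, but control replicate 4 was far below the other controls, and the log2 change of 0.97 ± 0.41 (SE) did not pass (limma adjusted p = 0.108). Atf6, the sensor released by cleavage, was at 7.07, 8.24 and 4.90 FPKM in the controls and at 5.77, 8.32 and 8.12 FPKM in the TNF libraries. Its groups overlapped, and the log2 change was 0.13 ± 0.26 (adjusted p = 0.724). These are levels of the sensors' mRNA, and FPKM does not report splicing, phosphorylation or cleavage.

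Xbp1, the factor downstream of Ern1, rose 2.25-fold in mean FPKM and had the largest log2 change among the 5 genes that rose. Its row spans chr11:5520659-5525893 in mm10, the bounds of the gene in GENCODE. The level was 156, 168 and 124 FPKM across control replicates 1, 2 and 4, compared with 431, 308 and 269 FPKM in TNF replicates 1, 3 and 4. Every TNF library was well above every control, and TNF replicate 1 was the highest. The group means were 149 ± 22.4 and 336 ± 84.8 FPKM (SD, n = 3 each), and the log2 change was 1.15 ± 0.23 (SE, limma adjusted p = 0.00936), a call that held when each library in turn was left out. The spliced and unspliced forms of Xbp1 are not separated in a value per gene.

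Atf4, which is regulated mainly through its translation, was at 135, 133 and 109 FPKM in the controls and 65.0, 121 and 117 FPKM in the TNF libraries. TNF replicate 1 was low and the other TNF libraries lay inside the control range, and the log2 change of -0.36 ± 0.27 (SE) did not pass (limma adjusted p = 0.336). Ddit3, which encodes CHOP, the factor tied to cell death after long ER stress, fell 3.58-fold in mean FPKM. It was at 138, 99.7 and 150 FPKM in the controls and 23.9, 44.0 and 40.5 FPKM in the TNF libraries. No TNF library came near the lowest control. The means were 129 ± 26.4 and 36.1 ± 10.7 FPKM (SD, n = 3 each), and the log2 change was -1.84 ± 0.28 (SE, limma adjusted p = 0.00296), the smallest adjusted p among the 33 genes. The call held without each library in turn. The exons of Ddit3 overlap Mars and Gm4189 on the other strand, and as the sources used here do not say whether strand was used in counting, reads of these genes may be shared.

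None of the 9 chaperones and cochaperones passed limma's adjusted test in either direction, where 10.9% of all tested rows rose and 27.2% fell. At an unadjusted limma p below 0.05 the counts were 0 higher and 0 lower, where 47.7% of all tested rows reached that level in either direction. Hspa5, the abundant Hsp70 chaperone (BiP) of the ER lumen that also binds the sensors, was at 1009, 1072 and 873 FPKM in the controls and 833, 1788 and 1638 FPKM in TNF replicates 1, 3 and 4. TNF replicates 3 and 4 were above all controls, whereas TNF replicate 1 was below all of them. The log2 change was 0.46 ± 0.36 (SE, limma adjusted p = 0.359), and it was 0.80 with an adjusted p of 0.0158 without TNF replicate 1. Hsp90b1 (GRP94), the Hsp90 chaperone of the ER, was at 632, 534 and 395 FPKM in the controls and 442, 766 and 729 FPKM in the TNF libraries. For Hsp90b1, TNF replicate 1 lay inside the control range and the other TNF libraries above it (log2 change 0.30 ± 0.31, limma adjusted p = 0.487).

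Hyou1, a large Hsp70-like exchange factor for Hspa5, had the largest estimate of the 9, with 13.1, 9.80 and 2.61 FPKM in the controls and 19.8, 13.7 and 13.4 FPKM in the TNF libraries. The groups did not overlap, but control replicate 4 was far below the rest, and the log2 change of 1.003 ± 0.51 (SE) did not pass (limma adjusted p = 0.168). Dnajb11, a J-domain cochaperone of Hspa5, was at 127, 135 and 164 FPKM in the controls and 108, 116 and 118 FPKM in the TNF libraries. It was the only chaperone with every TNF library below every control, and its log2 change of -0.31 ± 0.16 did not pass (adjusted p = 0.177). Dnajc3, a J-domain protein also known as an inhibitor of PERK, had TNF libraries on both sides of its highest control (0.52 ± 0.34, adjusted p = 0.273). The log2 changes of the other 4, Dnajb9, Sdf2l1, Manf and Creld2, ran from -0.30 to 0.15 with adjusted p from 0.359 to 0.884, and their groups overlapped. Manf was measured in a row merged with its neighbour Rbm15b, so its value cannot be separated from that gene.

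The lectin chaperones hold newly made glycoproteins until they fold. Calr, the soluble lectin calreticulin, rose: it was at 195, 237 and 180 FPKM in the controls and 298, 405 and 368 FPKM in the TNF libraries. All TNF libraries were above all controls, with means of 204 ± 29.4 and 357 ± 54.4 FPKM (SD, n = 3 each) and a log2 change of 0.80 ± 0.20 (SE, limma adjusted p = 0.0203). The call did not hold with control replicate 1 or 4, or TNF replicate 3 or 4, left out (adjusted p from 0.0524 to 0.0846). Canx, its membrane-bound relative calnexin, was at 177, 198 and 113 FPKM in the controls and 189, 255 and 243 FPKM in the TNF libraries. TNF replicate 1 lay inside the control range, and the log2 change of 0.51 ± 0.26 did not pass (adjusted p = 0.162).

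All 4 disulfide enzymes had every TNF library above every control, as 16.8% of all tested rows did, and 2 of them rose past the threshold, as 10.9% of all rows did. These isomerases form and rearrange the disulfide bonds of proteins in the ER. Pdia4 (ERp72) was at 78.8, 89.1 and 70.2 FPKM in the controls and 128, 179 and 174 FPKM in the TNF libraries. The TNF libraries were well clear of the controls, with means of 79.4 ± 9.42 and 160 ± 28.1 FPKM (SD, n = 3 each) and a log2 change of 0.99 ± 0.19 (SE, limma adjusted p = 0.00745) that held without each library in turn. Pdia6, an isomerase that also acts on the sensors Ern1 and PERK, was at 270, 336 and 230 FPKM in the controls and 456, 528 and 484 FPKM in the TNF libraries. Its lowest TNF library was far above its highest control, and the log2 change was 0.83 ± 0.21 (adjusted p = 0.0203), and the call did not hold with control replicate 1, or TNF replicate 3 or 4, left out (adjusted p from 0.0708 to 0.0827).

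P4hb, the classical protein disulfide isomerase and a subunit of prolyl hydroxylase, was at 232, 280 and 180 FPKM in the controls and 361, 321 and 333 FPKM in the TNF libraries. The groups were separate, but the controls were spread and the log2 change of 0.57 ± 0.21 (SE) did not pass (limma adjusted p = 0.0725), though it did with median-of-ratios scaling (0.82, adjusted p = 0.0199). Pdia3 (ERp57), the partner of Calr and Canx in glycoprotein folding, was at 474, 479 and 443 FPKM in the controls and 504, 834 and 722 FPKM in the TNF libraries. TNF replicate 1 was only just above the highest control, and the log2 change of 0.53 ± 0.25 did not pass (adjusted p = 0.139), while without TNF replicate 1 it was 0.74 (adjusted p = 0.0109). The exons of Pdia3, Pdia4 and Pdia6 overlap those of Catsper2, Mir704 and Atp6v1c2.

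Of the 7 genes of ER-associated degradation, only Herpud1 passed, and it fell, where 10.9% of all tested rows rose and 27.2% fell. Herpud1 encodes a membrane protein that brings the degradation complex together and is a well-known target of both the ATF6 and the ATF4 routes. Its level was 251, 218 and 398 FPKM across control replicates 1, 2 and 4, compared with 126, 93.5 and 92.1 FPKM in TNF replicates 1, 3 and 4. Every TNF library was below every control, and control replicate 4 was the highest of the controls. The means were 289 ± 95.4 and 104 ± 19.1 FPKM (SD, n = 3 each), a 2.78-fold fall, with a log2 change of -1.44 ± 0.27 (SE, limma adjusted p = 0.00651) that passed without each library in turn. Its promoter, printed above, holds an ERSE-II and an ATF4 element core, the only one of the 29 to hold both.

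The other degradation genes gave small or scattered values. Edem1, which takes misfolded glycoproteins out of the folding cycle, was at 5.85, 6.33 and 7.95 FPKM in the controls and 6.77, 13.9 and 13.9 FPKM in the TNF libraries. TNF replicate 1 was inside the control range while the others were above it, and the log2 change of 0.64 ± 0.31 (SE) did not pass (limma adjusted p = 0.146) except without TNF replicate 1 (0.96, adjusted p = 0.0118), with both control replicate 4 and TNF replicate 1 left out (1.07, adjusted p = 0.00260) and with quantile normalization (adjusted p = 0.0388). Derl2, a derlin of the ER exit channel, had groups that did not overlap (117, 121 and 108 FPKM against 162, 128 and 128 FPKM), with a log2 change of 0.26 ± 0.16 (adjusted p = 0.247). Syvn1, the ubiquitin ligase HRD1, its partner Sel1l and Derl1 had log2 changes of 0.26 ± 0.23, 0.28 ± 0.22 and 0.18 ± 0.16 and overlapping groups. Derl3, the derlin typical of secretory cells, was the lowest of the group at 1.001 to 2.60 FPKM in the controls and 1.17 to 1.80 FPKM in the TNF libraries, with a log2 change of -0.095 ± 0.26.

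Of the 5 targets of ATF4 and CHOP, 2 fell, as 27.2% of all rows did, and none rose by limma (0 at an unadjusted p below 0.05), while 4 had log2 changes below 0. Trib3, a pseudokinase induced by both factors, had the largest log2 change of the 33 genes on the scale tested. It was at 39.0, 28.3 and 63.7 FPKM in the controls and 14.1, 7.04 and 6.28 FPKM in the TNF libraries. No TNF library reached the lowest control, and TNF replicates 3 and 4 were lower than TNF replicate 1. The means were 43.7 ± 18.2 and 9.14 ± 4.31 FPKM (SD, n = 3 each), a 4.78-fold fall, with a log2 change of -2.14 ± 0.39 (SE, limma adjusted p = 0.00583) that passed without each library in turn.

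Chac1, an enzyme that degrades glutathione, was at 2.58, 2.38 and 6.20 FPKM in the controls and 0.546, 0.677 and 0.356 FPKM in the TNF libraries. All TNF libraries were under 1 FPKM, and control replicate 4 was far above the other controls. The log2 change was -1.54 ± 0.32 (SE, limma adjusted p = 0.00985), and this scale with 1 added to each value understates the change of so low a gene (mean FPKM was 7.07-fold lower). With quantile normalization the call was lost (-0.89, adjusted p = 0.0843), and without each single library it held.

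Asns, which makes asparagine, and Sesn2, a brake on mTORC1 signalling, had every TNF library below every control but did not pass. Asns was at 57.7, 47.3 and 61.0 FPKM in the controls and 46.8, 30.9 and 30.6 FPKM in the TNF libraries. TNF replicate 1 was just below control replicate 2, and the log2 change was -0.62 ± 0.22 (SE, limma adjusted p = 0.0613), passing without TNF replicate 1 (-0.82, adjusted p = 0.00891). Sesn2 was at 9.07, 10.1 and 17.97 FPKM in the controls and 8.37, 7.67 and 7.61 FPKM in the TNF libraries (-0.53 ± 0.28, adjusted p = 0.176), with control replicate 4 far above the other controls.

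Ppp1r15a (GADD34), the phosphatase subunit that reverses the translational block set by PERK, had the largest standard error of the 33 genes. It was at 254, 261 and 317 FPKM in the controls and 97.7, 668 and 610 FPKM in TNF replicates 1, 3 and 4. TNF replicate 1 lay below every control and the other TNF libraries far above every control. The log2 change was 0.31 ± 0.72 (SE, limma adjusted p = 0.766), it was 1.21 without TNF replicate 1 (adjusted p = 0.00279), and it was -0.18 and -0.11 without TNF replicate 3 and TNF replicate 4. The immediate early genes, known for their fast response to stimulation, were high in the same libraries: their sum was 4061 to 5619 FPKM in the controls, 5077 FPKM in TNF replicate 1 and 18180 and 15890 FPKM in TNF replicates 3 and 4. The fibroblast and endothelial sums given above were likewise low in TNF replicate 1 and high in TNF replicates 3 and 4, the split also seen in Hspa5, Hsp90b1 and Edem1. The part of these gene groups in the results was not tested. Exons of Ppp1r15a overlap those of Tulp2.

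**Figure D3:**
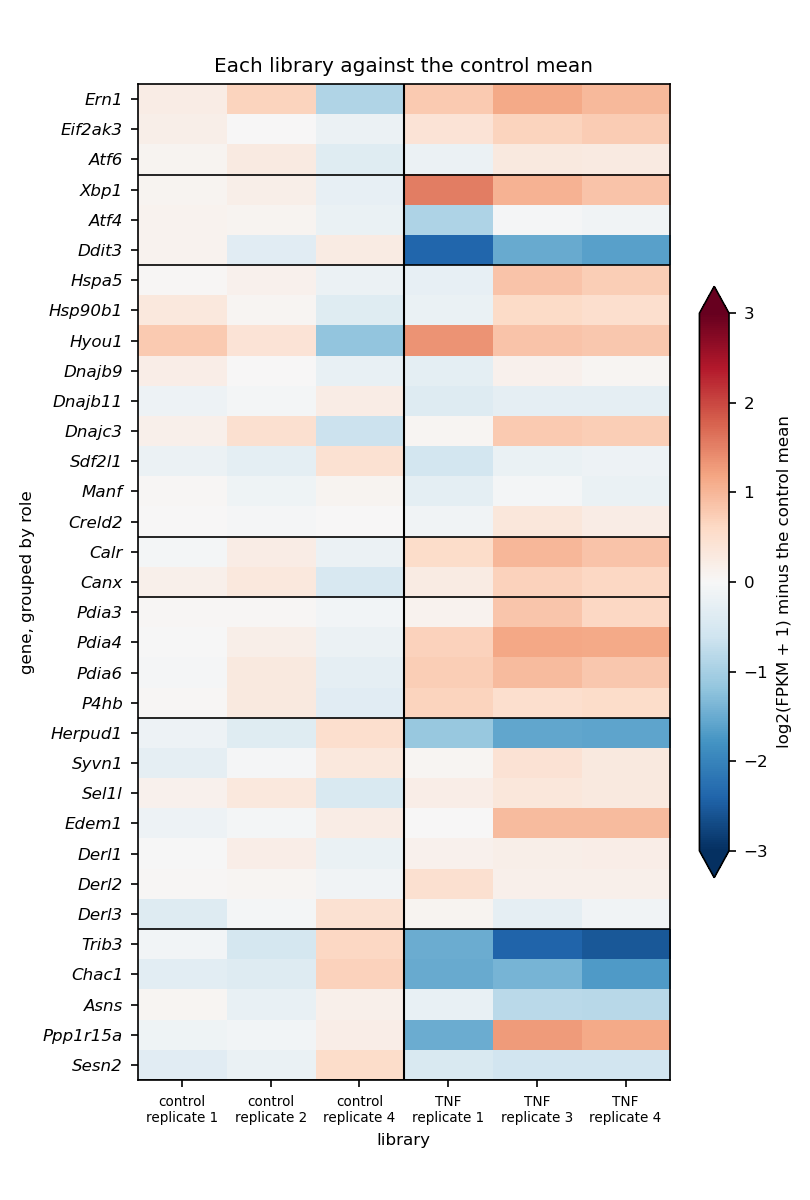
Log2(FPKM + 1) of each gene in each library minus the mean of the 3 controls, with red above and blue below that mean, for genes ordered by role. The columns of TNF replicates 3 and 4 resemble each other, TNF replicate 1 has the opposite sign for Hspa5, Hsp90b1 and Ppp1r15a, and control replicate 4 departs from the other controls for Trib3, Chac1, Herpud1 and Hyou1.

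The libraries that stood apart overall also did so for these genes. Summed over the 33 genes, the level was 5074, 5134 and 4697 FPKM in control replicates 1, 2 and 4 and 4909, 7360 and 6830 FPKM in TNF replicates 1, 3 and 4. These sums were 0.640%, 0.667% and 0.561% of all FPKM in the controls and 0.586%, 1.07% and 0.989% in the TNF libraries, so TNF replicate 1 lay inside the control range and the other TNF libraries above it. TNF replicate 1 was inside the control range for 9 of the 33 genes. Control replicate 4 was the lowest control for all 5 genes that rose and the highest control for all 4 that fell, and over the 33 genes it was lowest for 19 and highest for 13, against 39.1% and 44.6% of all tested rows. With TNF replicate 1 left out, 9 of the 33 genes rose and 5 fell, where 14.7% of all tested rows rose and 32.9% fell. With both of these libraries left out, which leaves 2 per group and was chosen after seeing the data, 12 rose and 5 fell, where 18.9% of all rows rose and 39.7% fell. With each library other than TNF replicate 1 left out in turn, 2 to 4 of the genes rose and 4 fell. In those runs 6.24% to 9.73% of all tested rows rose and 18.6% to 24.2% fell.

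**Figure D4:**
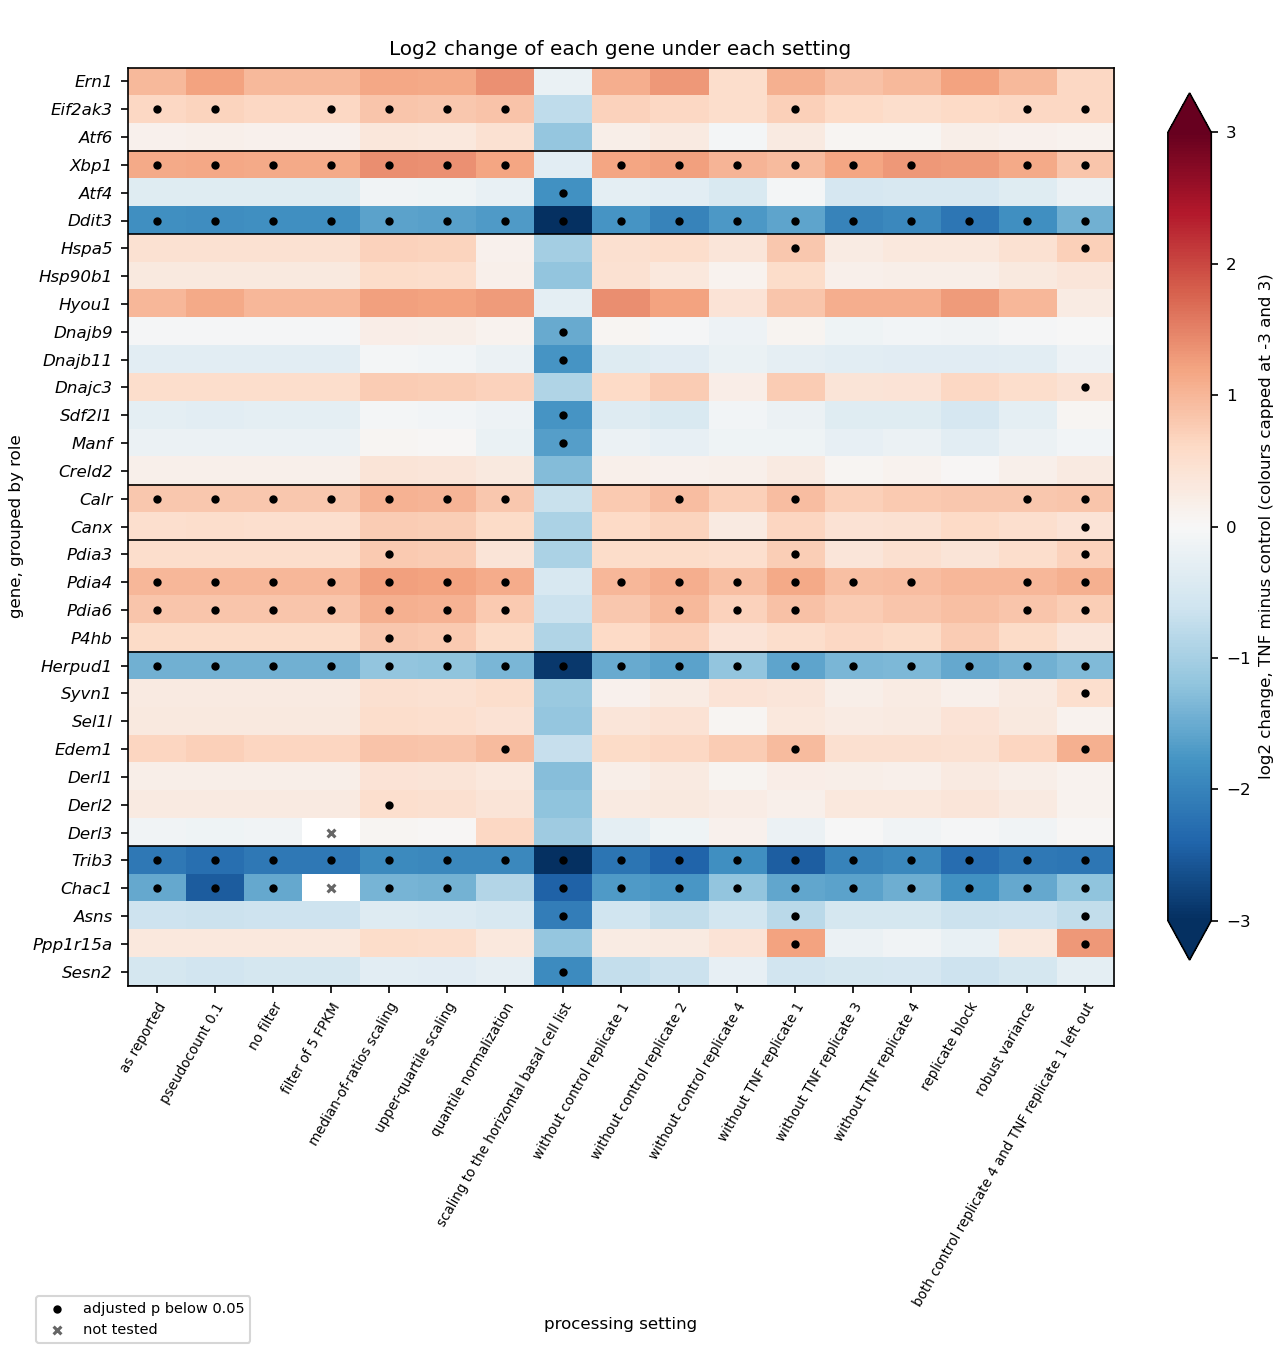
Log2 change, TNF minus control, of each gene (vertical) under each way of processing the values (horizontal), with colours capped at -3 and 3, black dots where the adjusted p was below 0.05 and crosses where a gene was not tested. The 4 genes that fell stay blue in every column in which they were tested, whereas scaling to the horizontal basal cell list turns the 5 genes that rose to blue.

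Genes of the same system outside the 33 were read from lists built by function. Among 33 tested genes of the ATF4 route and the integrated stress response, 14 fell and 1 rose (median log2 change -0.29), so 42.4% fell where 27.2% of all rows did. The 4 with the smallest p were Cebpg, a dimer partner of ATF4, at 213 to 283 FPKM in the controls and 52.1 to 54.4 FPKM in the TNF libraries (-2.23 ± 0.16 SE, limma adjusted p = 3.97e-04); Cth, of cysteine synthesis (-2.60 ± 0.21, 4.34e-04); Mthfd2, of mitochondrial folate metabolism (-3.02 ± 0.27, 5.53e-04); and Gpt2, an alanine aminotransferase (-2.18 ± 0.22, 7.54e-04). No TNF library of these 4 genes came near a control, and each call held under all 16 alternatives. The single gene that rose, named after its value was seen, was Nupr1, a stress-induced chromatin protein, at 78.5 to 79.8 FPKM in the controls and 300, 650 and 669 FPKM in the TNF libraries (2.66 ± 0.32, adjusted p = 0.00143). The count of falls was 10 to 15 with single libraries left out.

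Of 14 tested other ER stress sensors and processing enzymes, 4 rose and none fell by limma (0 lower at an unadjusted p below 0.05; median 0.10), where 10.9% of all rows rose and 27.2% fell. Casp12, a caspase bound to the ER membrane, was at 2.37, 2.43 and 2.64 FPKM in the controls and 34.9, 56.7 and 74.0 FPKM in the TNF libraries. The groups were far apart, and the log2 change of 3.95 ± 0.29 (SE, limma adjusted p = 3.97e-04) held under all 16 alternatives. Traf2, an adaptor of both the TNF receptor and the Ern1 product, was at 10.8 to 14.2 FPKM and 25.6 to 28.2 FPKM (1.03 ± 0.17, adjusted p = 0.00425). The ER membrane factors Creb3l2 and Creb3l4 also rose (0.90 ± 0.28 and 0.70 ± 0.23), and both calls were lost without any single library other than TNF replicate 1.

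The counts of the folding and secretion lists stand against the same 10.9% of all rows that rose and 27.2% that fell. Among 26 other ER folding genes, none rose by limma (2 at an unadjusted p below 0.05) and 3 fell (median 0.094), namely the peroxidase Prdx4 (-0.92 ± 0.20), Erp29 (-1.07 ± 0.26) and Txndc12 in a merged row (-0.76 ± 0.23). The call of Erp29 was lost without TNF replicate 3 or 4, and that of Txndc12 without any single library other than TNF replicate 1. Of 21 tested translocon and signal peptidase genes 1 rose, the catalytic subunit Sec11c (73.4 to 81.8 FPKM in the controls, 132 to 143 FPKM in the TNF libraries, 0.80 ± 0.14, limma adjusted p = 0.00465), and 3 fell, including its paralog Sec11a in a merged row (-0.79 ± 0.17), a call lost without TNF replicate 3 or 4. Of 12 oligosaccharyltransferase genes, which attach glycans to new proteins, only Tusc3 passed, with 218 to 269 FPKM in the controls and 85.1 to 115 FPKM in the TNF libraries (-1.33 ± 0.18, adjusted p = 0.00209).

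The degradation, ER exit and heat shock lists also stand against 10.9% of all rows higher and 27.2% lower. Among 23 other ER-associated degradation genes 3 rose and 3 fell (median -0.16). Herpud2, the paralog of Herpud1, was among those that rose: it was at 24.6, 29.0 and 22.3 FPKM in the controls and 40.1, 45.9 and 45.8 FPKM in the TNF libraries. Its TNF libraries were all above its controls, opposite to those of Herpud1, with a log2 change of 0.78 ± 0.16 (SE, limma adjusted p = 0.0101) that did not pass without TNF replicate 3 or TNF replicate 4. Of 20 genes of COPII vesicles and ER exit, which carry folded proteins onward, 4 rose and none fell by limma (0 lower at an unadjusted p below 0.05; median 0.30), led by the cargo receptor Lman1 (1.08 ± 0.25, adjusted p = 0.0157), and none rose without control replicate 1 or without TNF replicate 3. Of 15 tested heat shock genes of the cytosol and mitochondria 2 rose, Bag3 (1.46 ± 0.19) and Hspb8 (1.25 ± 0.30), and 3 fell, including Hspd1 (-0.50 ± 0.14) and Hsp90ab1 (-0.66 ± 0.19). Bag3 passed without each library in turn, whereas Hspb8, Hspd1 and Hsp90ab1 did not pass without TNF replicate 3 or 4. Hspd1 and Hsp90ab1 also did not pass without control replicate 1 or 2, nor Hsp90ab1 without control replicate 4. Scaling to the horizontal basal cell list kept the call of Casp12. It lost the rises of Traf2, Creb3l2, Creb3l4, Sec11c, Herpud2, Fam8a1, Lman1, Lman2, Sec31a, Sec24b, Bag3 and Hspb8. Median-of-ratios scaling lost the falls of Txndc12, Ssr2, Spcs3, Vimp, Selk, Hspd1 and Hsp90ab1.

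**Figure D5:**
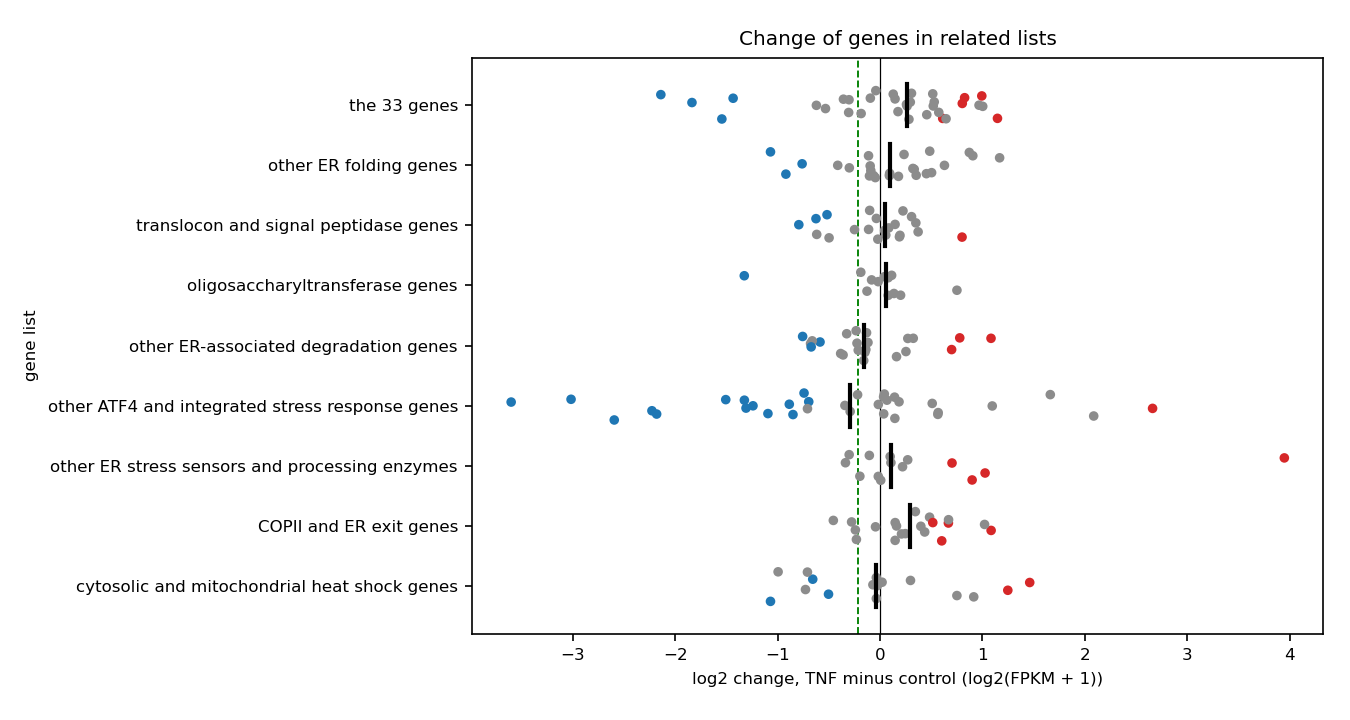
Log2 change, TNF minus control, of every tested gene (points, horizontal axis) in the 33 genes and in each related list (vertical axis), with red for genes that rose, blue for genes that fell, a bar at the median of each list and a dashed line at the median of all tested rows. The list of other ATF4 route genes holds 14 blue points and 1 red point, and Casp12 is the red point farthest to the right, on the scale of the deposited values.

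The promoter elements were set beside the changes as a description, since genes with the same element also share functions. The counts by element stand against 10.9% of all tested rows higher and 27.2% lower. Changes of genes outside the 33 whose windows hold these elements are not given here, so no link between element and change was tested. The 9 genes with an ERSE had a median log2 change of 0.46, with 2 higher (Calr and Pdia6) and 0 lower, and the 20 without one had a median of 0.11, with 3 higher and 4 lower. The 4 genes with an ATF4 element core had a median of -1.49, with 3 lower and 0 higher. Chac1, 1 of these 3 lower genes, passed the filter on low values through its control libraries, so its inclusion required a difference. The 25 genes without the core had a median of 0.31, with 1 lower and 5 higher. The short parts of the ERSE were common by themselves: CCAAT was in 82.8% of the 29 windows and 37.4% of all windows, and CCACG in 82.8% and 32.8%.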

How the data were processed

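RNA of sorted cells was measured in 3 control and 3 TNF libraries. The authors deposited a table of FPKM per gene, with 44519 rows. Per the submitters' processing notes, Cuffdiff 2.2.1, TopHat2 2.1.1, FastQC 0.10.1 and bcl2fastq were used with build mm10; the sources used here do not give their roles, settings or strand handling. Per the labels' protocols, the RNA was amplified with the Clontech SMARTer kit and made into Nextera libraries. Read depth is unknown: 99.98% of values above 0 are not whole. FPKM summed to 688190 to 838417 per library, and the value of 1 fragment in the low rows was 0.874 to 1.08 times that of control replicate 1. No column belonged to other samples.

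The members and lists were chosen with earlier results of these data known. Groups were taken from the labels. Log2(FPKM + 1) was tested with limma 3.58.1 in R 4.3.3 (eBayes with trend, no covariate, no rescaling) over rows reaching 1 FPKM in 3 or more libraries, with Benjamini-Hochberg adjustment over 15037 rows and a threshold of 0.05. The procedure was tested on simulated data. A log2 change on this scale understates that of low genes. Alternatives were pseudocount 0.1, no filter, a filter of 5 FPKM, 4 scalings, leaving out libraries, a replicate block, robust variance and stricter thresholds. All 33 members were named, and from each related list up to 4 genes past the threshold with the smallest p, and Tnf. The plan also held the 2 marker genes of highest mean per list, but the marker lists are given mostly as sums and counts. Jchain, Mzb1, Sdc1 and Prdm1 were named outside this rule. Symbols had 1 row for 29 members and 2 rows for 4 (Eif2ak3, Sel1l, Trib3 and Sesn2). Fam8a1 was read as C78339 and Jchain as Igj, and March6 and Slc7a5 were not matched. Exons of 11 members overlap other genes in GENCODE. Row bounds equalled those of the gene in GENCODE for 14 of the 33 members, Xbp1 among them. The rows of others, such as Ddit3, Pdia6, Herpud1, Hspa5 and Ppp1r15a, extend past the gene. Coordinates of rows had 1 added to the start. Promoters are from RefSeq (GRCm38.p6), and protein sequences were not analysed here.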

Additional observations from a re-analysis of the deposited data

How the results depend on the processing

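Depth is unknown, 3 libraries per group limit the precision, and the groups differ in cell markers. The counts of the 33 genes that rose (5) and fell (4) were 8 higher with median-of-ratios scaling, 0 higher and 11 lower with scaling to the horizontal basal cell list, 2 higher at an adjusted p below 0.01, 1 higher at 2-fold, 12 higher with both control replicate 4 and TNF replicate 1 left out (chosen after seeing the data), and 2 to 9 higher and 4 to 5 lower without single libraries. Their median log2 change (0.26) was 0.51 with median-of-ratios, 0.49 with upper-quartile and -1.16 with horizontal basal cell scaling, and 0.15 to 0.32 without single libraries. Over all rows, 1635 rose and 4083 fell: 2658 rose with quantile normalization, 211 rose and 8564 fell with horizontal basal cell scaling, 2655 fell with the filter of 5 FPKM, 787 rose and 2504 fell at 0.01, 2835 rose with both libraries left out, and 938 to 2205 rose and 2802 to 4946 fell without single libraries. With a replicate block, 0 of the 33 genes rose and 4 fell, and over all rows 744 rose and 2246 fell; the groups share 2 numbers, whose libraries deviated with correlations of -0.06 and -0.09, so they share only a number and are not shown to be paired.

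Scaling to the horizontal basal cell list reversed 21 log2 changes: Ern1 -0.19, Eif2ak3 -0.75, Atf6 -1.16, Xbp1 -0.33, Hspa5 -1.02, Hsp90b1 -1.18, Hyou1 -0.30, Dnajc3 -0.91, Creld2 -1.30, Calr -0.67, Canx -0.96, Pdia3 -0.95, Pdia4 -0.47, Pdia6 -0.65, P4hb -0.90, Syvn1 -1.11, Sel1l -1.16, Edem1 -0.69, Derl1 -1.27, Derl2 -1.20 and Ppp1r15a -1.17. Other sign changes were in genes that did not pass. Median-of-ratios, upper-quartile and quantile scaling gave Dnajb9 0.20, 0.18 and 0.10 and Derl3 0.051, 0.041 and 0.61, and the first 2 of these gave Manf 0.061 and 0.038. Ppp1r15a was -0.22 with the replicate block. Leaving out both libraries gave Sdf2l1 0.051 and Derl3 0.040. Without single libraries, the ranges were -0.15 to 0.089 for Dnajb9 (above 0 without control replicate 1 or TNF replicate 1), -0.054 to 0.28 for Atf6 and -0.29 to 0.13 for Derl3 (both reversed without control replicate 4), and -0.18 to 1.21 for Ppp1r15a (below 0 without TNF replicate 3 or 4). The cause was not tested.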

Other observations

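Some plasma cell genes differed between the controls. Those named here are part of a list of plasma and B cell markers. Of its 9 tested genes 1 was higher and 4 were lower, where 10.9% of all tested rows rose and 27.2% fell. Jchain, which joins secreted antibody chains, had levels of 0.218 and 0.0769 FPKM for control replicates 1 and 2, 105 FPKM for control replicate 4, and 67.4, 48.7 and 34.3 FPKM for TNF replicates 1, 3 and 4. Mzb1, an ER cochaperone of plasma cells, stayed between 0.511 and 1.78 FPKM in all 6 libraries. Igkc, in a merged row, gave 45.9 and 55.2 FPKM for control replicates 1 and 2 and 256 to 554 FPKM elsewhere. Sdc1, which epithelial and plasma cells share, was at 67.7 to 112 FPKM in the controls and 154 to 243 FPKM in the TNF libraries (log2 change 0.95 ± 0.28 SE, limma adjusted p = 0.0329). Control replicate 4 had the highest Jchain and Igkc and the lowest Xbp1 of the 6 libraries, while the TNF libraries had the same order for Jchain, Igkc and Xbp1, with replicate 1 highest and replicate 4 lowest. The part of plasma cells in the level of Xbp1 was not tested.

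Some other ATF4 route genes with groups that did not overlap were named after their values were seen. Atf5, a factor translated under stress, was at 36.7 to 68.5 FPKM in the controls and 5.39, 1.56 and 2.87 FPKM in the TNF libraries (-3.60 ± 0.39, limma adjusted p = 9.88e-04). The tRNA synthetases Yars, Gars, Aars and Eprs had log2 changes from -1.24 to -0.74. The other listed synthetases did not pass. Sars (-0.71) and Nars (-0.29) had all TNF libraries below all controls, as 36.2% of all tested rows did. The groups of Iars (-0.34) and Wars (0.14) overlapped. Slc7a11, the cystine carrier, lay in the opposite direction to Atf5 and did not pass. It was at 13.7, 18.6 and 1.33 FPKM in the controls and 30.2 to 40.7 FPKM in the TNF libraries (2.09 ± 0.76, limma adjusted p = 0.0718). Atf3, a stress-induced partner factor, was at 168 to 468 FPKM in the controls, 130 FPKM in TNF replicate 1 and 2608 and 2156 FPKM in TNF replicates 3 and 4, the same split between TNF libraries as for Ppp1r15a.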
